A study of Mus musculus with 12 samples.

Results

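A set of 7 genes of the CXC chemokine system were followed in RAW264.7 cells, a mouse macrophage line: the ligand genes Cxcl2, Cxcl3, Cxcl9, Cxcl10, Cxcl11 and Cxcl16 and the receptor gene Cxcr4. They were found by their symbols among the 12483 genes of the deposited count table, and all 7 of 7 were present. The study asked which genes depend on NRE1, the stretch that was deleted, a name that the labels do not expand. Per the labels' protocols, CRISPR constructs were directed at both flanks of NRE1, transfected cells were selected by GFP and Puro, and lines were grown from single cells. The 4 groups, of 3 libraries each, were wild-type (WT) clones 1, 2 and 3 and NRE1 KO clones 1A, 1B and 2, in medium or with LPS at 10 ng/mL and IFN-gamma at 50 ng/mL for 6 h. Each library came from 1 clone, so the p-values measure the spread between clones. Whether KO 1A and KO 1B are independent clones, and whether the WT clones also received the constructs, is not given in the sources used here.

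Chemokines are small secreted proteins that steer white blood cells, and the CXC group is named for a residue that lies between a pair of conserved cysteines. The ligands bind G protein coupled receptors: Cxcl2 and Cxcl3 draw neutrophils through Cxcr2, Cxcl9, Cxcl10 and Cxcl11 draw activated T and NK cells through Cxcr3, and Cxcl16 is made as a membrane protein that binds Cxcr6. Cxcr4 is the receptor for Cxcl12, which holds cells in the bone marrow and other niches. In macrophages, LPS acts through Toll-like receptor 4 and the NF-kB factors, while IFN-gamma acts through interferon regulatory factors such as Irf1, and chemokine genes are among the known targets of both routes.

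The genes Cxcl2, Cxcl3, Cxcl9, Cxcl10 and Cxcl11 lay on chromosome 5 (GRCm38, GENCODE M21). Cxcl3 (chr5:90786103-90789600) and Cxcl2 (chr5:90903871-90905938), both on the plus strand, were 114.3 kb apart. Cxcl9 (chr5:92321347-92328079), Cxcl10 (chr5:92346638-92348889) and Cxcl11 (chr5:92359544-92365485), all on the minus strand, formed a second run with gaps of 18.6 and 10.7 kb. Cxcl16 lay apart (chr11:70453983-70459984, minus strand), as did Cxcr4 (chr1:128588199-128592293, minus strand).

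The promoters are shown because both runs of genes on chromosome 5 carried motifs of factors activated by LPS or interferon. The sequences are from RefSeq (GRCm38.p6), which held 5 of the 7 members, without Cxcl11 and Cxcl16. They are the 220 bases upstream of the RefSeq start, written 5′ to 3′ on the strand of the gene, with capitals marking motif matches on either strand.
Cxcl2 (chr5:90903679-90903898, plus strand): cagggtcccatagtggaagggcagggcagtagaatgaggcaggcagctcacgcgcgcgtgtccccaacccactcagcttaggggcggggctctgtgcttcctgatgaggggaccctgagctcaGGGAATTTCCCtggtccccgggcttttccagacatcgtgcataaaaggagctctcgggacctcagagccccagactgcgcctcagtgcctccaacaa
Cxcl3 (chr5:90785881-90786100, plus strand): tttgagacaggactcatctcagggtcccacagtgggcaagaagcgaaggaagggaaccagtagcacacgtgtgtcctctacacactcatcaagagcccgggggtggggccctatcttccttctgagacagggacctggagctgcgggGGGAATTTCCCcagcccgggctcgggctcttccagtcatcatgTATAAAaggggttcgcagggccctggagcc
Cxcl9 (chr5:92328080-92328299, minus strand): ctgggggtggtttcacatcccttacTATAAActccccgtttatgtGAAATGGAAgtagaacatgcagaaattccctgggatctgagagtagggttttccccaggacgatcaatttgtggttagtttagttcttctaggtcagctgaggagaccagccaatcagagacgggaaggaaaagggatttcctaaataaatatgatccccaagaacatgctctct
Cxcl10 (chr5:92348890-92349109, minus strand): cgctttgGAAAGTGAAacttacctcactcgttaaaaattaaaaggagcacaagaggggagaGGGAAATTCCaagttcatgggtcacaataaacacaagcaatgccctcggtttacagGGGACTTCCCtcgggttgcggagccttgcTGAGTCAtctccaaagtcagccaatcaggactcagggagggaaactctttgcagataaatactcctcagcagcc
Cxcr4 (chr1:128592300-128592519, minus strand): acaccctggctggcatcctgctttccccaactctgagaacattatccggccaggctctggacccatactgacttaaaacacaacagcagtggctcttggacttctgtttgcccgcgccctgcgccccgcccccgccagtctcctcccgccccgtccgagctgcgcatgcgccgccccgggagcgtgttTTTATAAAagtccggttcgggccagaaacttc

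In a search from 250 bases before to 50 bases after each start, on both strands, the 2 neutrophil chemokine promoters held the NF-kB consensus with the same letters, GGGAATTTCC. This match began 97 bases before the start of Cxcl2 and 73 bases before that of Cxcl3. Each also read as a match on the other strand, shifted by 1 base and overlapping the first. Cxcl10 held 2 NF-kB matches, GGGAAATTCC at 159 and GGGACTTCCC at 103 bases before the start. The ISRE core (GAAANNGAA), bound by interferon-activated factors, was found in Cxcl10 at 213 and in Cxcl9 at 175 bases before the start.

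An AP-1 match (TGANTCA) lay 74 bases before the start of Cxcl10 and 32 bases after that of Cxcl9, the latter outside the printed stretch. A match to the TATA box letters (TATAAA) lay 30 bases before the start of both Cxcl3 and Cxcr4 and 195 bases before that of Cxcl9. The name is given by the letters alone, at any distance from the start. In Cxcr4 the TATAAA match also overlapped a match on the other strand. The GAS motif (TTCNNNGAA), a motif of IFN-gamma responsive genes, was in 0 of the 5 windows. Among 32851 RefSeq promoter windows of the same length, 4.51% held the NF-kB consensus, 8.56% the ISRE core, 8.3% the GAS motif, 13.6% the TATA box and 7.81% the AP-1 motif. A match describes these letters and is not a measured binding site.

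**Figure D1:**
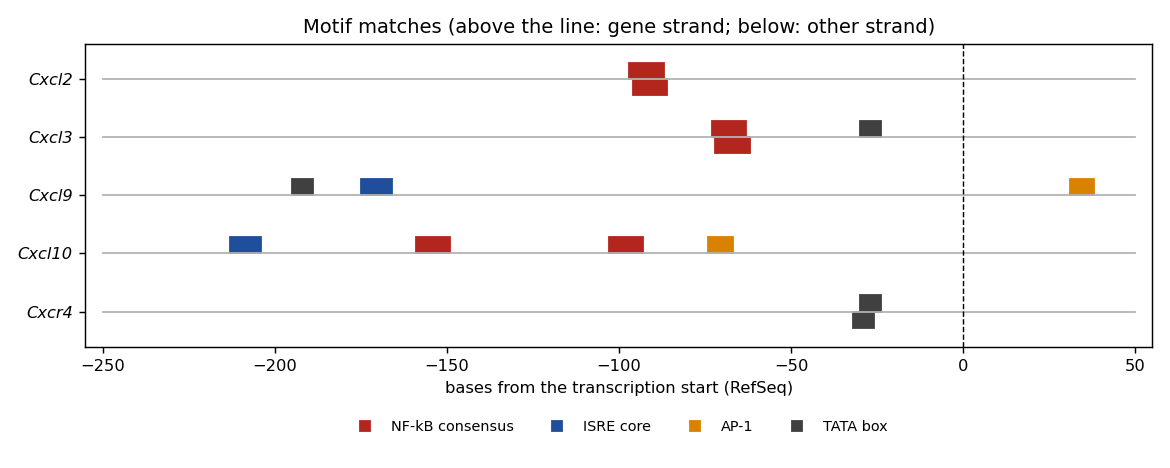
Motif matches in the promoters of 5 members, plotted by distance in bases from the RefSeq start (dashed line), with matches on the strand of the gene above each line and on the other strand below it. Cxcl2 and Cxcl3 each show an overlapping pair of NF-kB matches that begin 97 and 73 bases before the start, and Cxcl10 shows 2 NF-kB matches and an ISRE core.

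The libraries held 10624591 to 14388590 counts, and levels are given as CPM, which puts all libraries on 1 common size after correction by the trimmed mean of M-values (TMM). All 10 macrophage markers tried, among them Cd68, Adgre1, Csf1r and Lyz2, were in the table, with summed levels of 8465 to 19136 CPM in WT medium libraries and 4730.2 to 14024 CPM in KO medium libraries. Of these, 1 was called between genotypes in medium, Itgam, an integrin chain, which was lower in KO (-1.75 ± 0.26 log2, adjusted p = 0.0098). In 4 of the 10 the medium groups did not overlap, all lower in KO: Itgam, Adgre1 (-2.82 ± 0.60, adjusted p = 0.052), Fcgr1 (-1.86 ± 0.64, adjusted p = 0.22) and Spi1 (-0.33 ± 0.14, adjusted p = 0.32). Under stimulation 5 were lower and 1 higher in KO without overlap, and none of them was called. Over all genes 1.21% were called and 20.9% did not overlap in medium, against 4.64% and 24% under stimulation. The part of these markers in the results below was not tested. Markers of T or NK cells, B cells, fibroblasts and epithelium had 0 of 19 genes in the table. Neutrophil and endothelial lists each had 1 gene there, S100a8 and Pecam1, at no more than 2.84 and 1.84 CPM. In bulk RNA, fewer cells making a transcript and less transcript per cell cannot be told apart.

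The first question was how the chemokine genes respond to LPS and IFN-gamma in cells without the deletion. In WT clones all 6 ligand genes rose and Cxcr4 fell, with tests by the quasi-likelihood method of edgeR and Benjamini-Hochberg adjustment over 12231 genes at a threshold of 0.05. Over all genes tested, 23.8% were called higher and 23.6% lower in this comparison. In KO clones 5 ligand genes rose, Cxcr4 fell and Cxcl3 did not pass, where 26.7% of all genes were called higher and 27.6% lower. The medium and stimulated libraries did not overlap in 7 of 7 members in either genotype, as was so for 50.5% of all genes in WT and 70% in KO. The median log2 fold change of the members was 8.67 in WT and 8.27 in KO, or 8.38 and 7.39 with Cxcl3 set at its lower bound, against -0.01 for all genes in both. The members were chosen with earlier results of these data known, so these values describe the set and do not test it. Cxcl14, a further CXC ligand gene measured here, was not a member and gave -0.39 ± 0.69 log2 in WT and -1.93 ± 0.72 in KO.

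**Figure D2:**
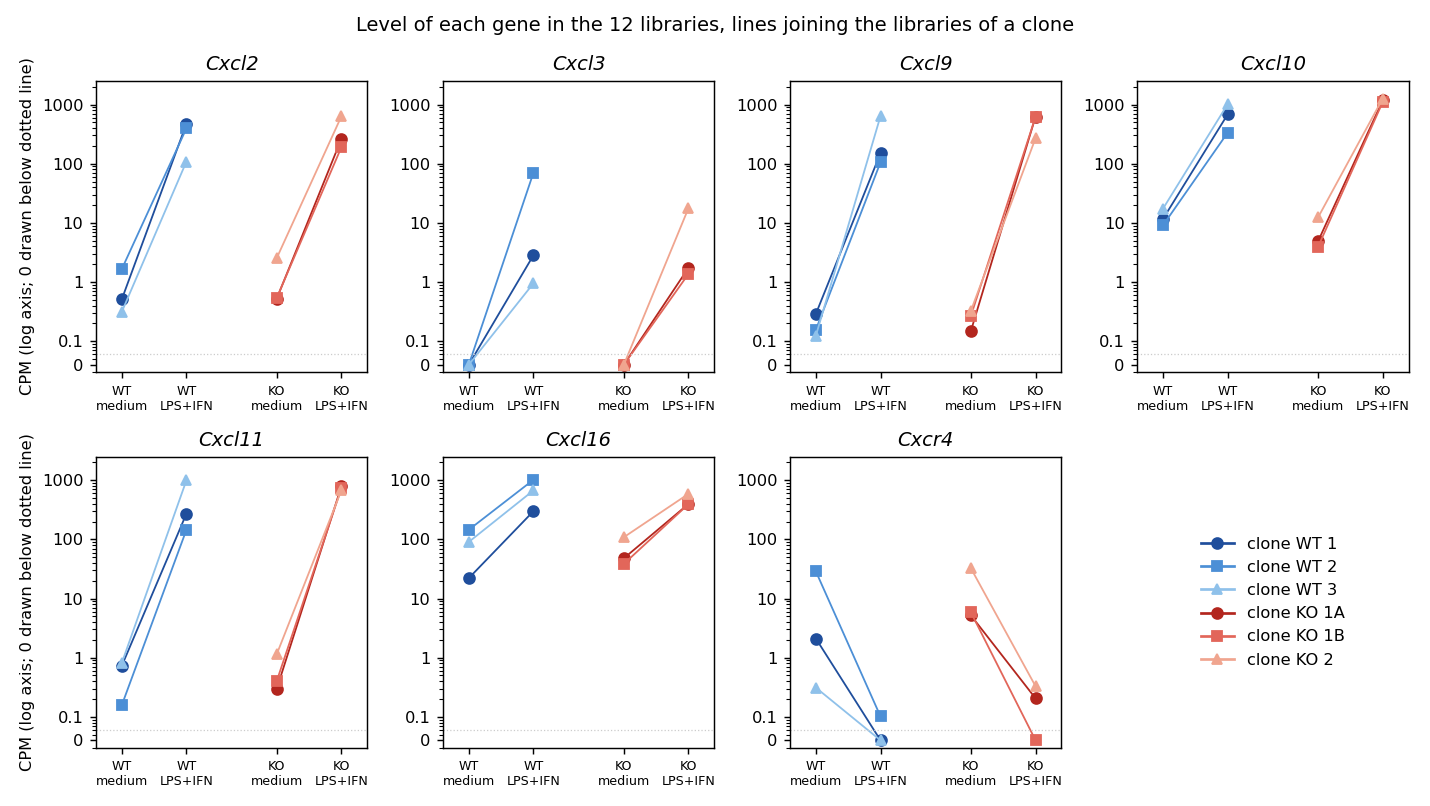
Level of each member in CPM (log axis, with 0 drawn below the dotted line) in the 12 libraries, with a line joining the medium and stimulated library of each clone. The 6 ligand genes run upward in every clone, Cxcr4 runs downward in every clone, and Cxcl3 starts at 0 in all 6 medium libraries.

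Cxcl2, also known as MIP-2, is a main neutrophil attractant of mouse macrophages. In WT clones 1, 2 and 3 it stood at 0.507, 1.64 and 0.311 CPM in medium and at 469.7, 394 and 108 CPM under stimulation. In KO clones 1A, 1B and 2 it stood at 0.525, 0.541 and 2.55 CPM in medium and at 264, 191 and 634 CPM under stimulation. Every stimulated library lay far above every medium library, WT 3 was the lowest of the stimulated libraries and KO 2 the highest, and the genotypes overlapped. The log2 fold change was 8.67 ± 0.95 (SE) in WT (adjusted p = 6e-05) and 8.27 ± 0.92 in KO (adjusted p = 4.7e-05). The WT value was 8.07 without WT 1 and 9.43 without WT 2.

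Cxcl3 encodes a close relative of Cxcl2 that also acts on Cxcr2. It had 0 counts in all 6 medium libraries, which allows a mean of up to 0.0703 CPM in WT and 0.0745 CPM in KO (3 counts over the group, counting error only). Under stimulation it reached 2.83, 70.4 and 0.949 CPM in WT 1, 2 and 3, from 31, 694 and 10 counts. In KO 1A, 1B and 2 it reached 1.74, 1.37 and 17.7 CPM, from 17, 14 and 162 counts. A single clone of each genotype, WT 2 or KO 2, held most of the counts, and the highest library exceeded the lowest by 74.1-fold in WT and 13.0-fold in KO. Against the floor of 3 counts over the medium group, stimulated WT clones held at least 333-fold higher Cxcl3 and stimulated KO clones at least 88.9-fold higher Cxcl3. These bounds come from counts pooled over the clones. The edgeR tests of the fitted change, which use the spread between clones, gave an adjusted p of 0.036 in WT and 0.07 in KO. The KO result passed with the clone as a replicate block (adjusted p = 7e-05). The WT call was lost without any one of WT 1 (adjusted p = 0.066), WT 2 (0.13), WT 3 (0.051) or KO 1A (0.052), which enters through the shared spread. WT 2 held 694 of the 735 WT counts and KO 2 162 of the 193 KO counts, and without them the bounds fell to at least 19.0-fold higher in WT and at least 14.5-fold higher in KO. The KO result passed without WT 2 (adjusted p = 0.023).

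Cxcl9, or MIG, is a gene known for its dependence on IFN-gamma. It was close to 0 in medium, at 0.290, 0.157 and 0.124 CPM in WT 1, 2 and 3 and 0.150, 0.270 and 0.329 CPM in KO 1A, 1B and 2, from 8 counts in all in WT and 10 in KO. Under stimulation it was at 151, 106 and 640.4 CPM in the WT clones and at 628, 621 and 271 CPM in the KO clones. WT 3 lay above all 3 KO clones, and KO 2 lay nearer to WT 1 and WT 2 than the other KO clones did. Cxcl9 had the largest fitted response among members with a usable fold, at 10.56 ± 1.01 log2 in WT (adjusted p = 2.4e-05) and 10.94 ± 0.99 in KO (adjusted p = 1.4e-05). The WT value was 11.29 without WT 1 and 9.09 without WT 3.

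Cxcl10, or IP-10, is induced by type I interferon as well as by IFN-gamma. It was already measured in medium, at 11.7, 9.08 and 17.4 CPM in WT 1, 2 and 3 and at 4.87, 3.92 and 12.3 CPM in KO 1A, 1B and 2. Under stimulation it stood at 679.6, 333 and 1011 CPM in the WT clones and at 1174, 1099 and 1259 CPM in the KO clones. The genotypes overlapped in medium, whereas under stimulation every KO clone lay above every WT clone. The response was 5.73 ± 0.54 log2 in WT (adjusted p = 2.3e-05) and 7.39 ± 0.59 in KO (adjusted p = 6e-06), or 8.01 in KO without KO 2. Its exons shared 133 bases (5.9% of their length) with Art3 on the plus strand, which ran from 0.587 to 7.82 CPM over all libraries. In medium Art3 was at 2.43 to 7.82 CPM in WT and at 0.825 to 1.81 CPM in KO clones. Whether counting used strand is not given in the sources used here. In medium a part of the Cxcl10 level, and of its difference between genotypes, is therefore uncertain.

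Cxcl11, or I-TAC, is the third Cxcr3 ligand. In GENCODE M21 the mouse gene is typed as a polymorphic pseudogene, and 41.7% of its exon length is shared with Gm2673 on the plus strand, so its counts are uncertain. It was at 0.724, 0.157 and 0.809 CPM in medium in WT 1, 2 and 3 and at 0.30, 0.406 and 1.15 CPM in KO 1A, 1B and 2. Under stimulation it rose to 271, 144 and 991 CPM in WT and to 792, 737 and 675 CPM in KO. The stimulated WT clones spread over 6.87-fold, around the KO clones, which spread over 1.17-fold. The response was 9.63 ± 0.91 log2 in WT (adjusted p = 2.4e-05) and 10.23 ± 0.93 in KO (adjusted p = 1.3e-05). It was 8.82 in WT without WT 3 and 11.03 in KO without KO 2.

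Cxcl16 encodes a transmembrane chemokine that also takes up oxidised lipoprotein, and its extracellular part is shed by proteases. It had the highest level in medium, at 22.2, 146 and 90.7 CPM in WT 1, 2 and 3 and at 48.0, 38.6 and 109 CPM in KO 1A, 1B and 2. Under stimulation it was at 300.0, 1019.6 and 674 CPM in the WT clones and at 398, 396 and 589.8 CPM in the KO clones. WT 2 was highest and WT 1 lowest in both conditions, and the KO clones lay between them. Its response was the smallest of the ligand genes, at 2.95 ± 0.68 log2 in WT (adjusted p = 0.0054) and 2.82 ± 0.68 in KO (adjusted p = 0.0055). Within clones it rose by 13.5-, 7.0- and 7.43-fold in WT 1, 2 and 3 and by 8.29-, 10.2- and 5.41-fold in KO 1A, 1B and 2. Its exons shared 18.3% of their length with Zmynd15 on the plus strand, at 1.38 to 13.6 CPM.

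Cxcr4 was the member that fell. In medium it stood at 2.10, 28.7 and 0.311 CPM in WT 1, 2 and 3 and at 5.17, 5.81 and 32.3 CPM in KO 1A, 1B and 2. Under stimulation it had 0, 1 and 0 counts in the WT clones and 2, 0 and 3 counts in the KO clones. WT 2 and KO 2 were the high clones in medium, and the highest WT clone exceeded the lowest by 92.2-fold. In WT it went from 400 counts to 1, which was 294-fold lower with a 95% counting interval of 52.5 to 11643, from counts pooled over the clones. In the edgeR fit it changed by -7.92 ± 2.19 log2 (adjusted p = 0.013). In KO it went from 548 counts to 5, a log2 fold change of -6.30 ± 1.79 (adjusted p = 0.013). WT 2 held 366 of the 400 counts and the single stimulated count. Without it 34 counts went to 0, at least 8.15-fold lower, and the WT call was lost (adjusted p = 0.12). Without KO 2, 155 KO counts went to 2, which was 55.1-fold lower (95% counting interval 15 to 459). The KO call was lost without KO 1A (adjusted p = 0.051), KO 1B (0.054) or KO 2 (0.08). These fits did not pair the libraries of a clone. In the edgeR fit with the clone as a replicate block, the change was -7.86 ± 0.53 log2 in WT (adjusted p = 2.7e-06). In KO it was -6.23 ± 0.37 log2 with the block (adjusted p = 9.5e-07). Both of these SEs were derived from the F statistic. With 1 stimulated WT count, the WT one is narrower than the counting interval above and understates the uncertainty of the size.

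**Figure D3:**
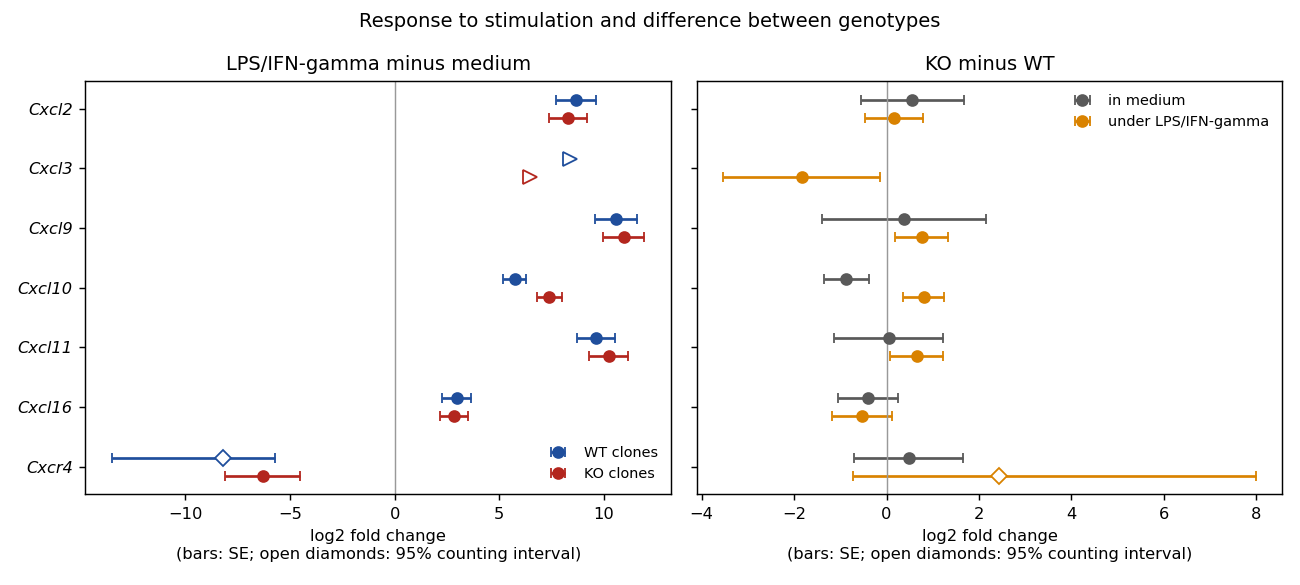
Left, log2 fold change under LPS and IFN-gamma in WT and KO clones; right, KO minus WT in medium and under stimulation. Filled points are fitted values with their SE, open triangles are the lower bounds for Cxcl3 (8.38 and 6.47), open diamonds are ratios of counts for Cxcr4 with 95% counting intervals, and the ligand genes all lie to the right of 0 on the left side while the right side has points on both sides of 0.

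The comparison that the deletion implies, KO against WT, gave no call in any member. In medium 0 of 7 members were called by edgeR, where 1.21% of all genes were, and 0 members passed an unadjusted p below 0.05. No member had groups that did not overlap, against 20.9% of all genes. The differences in medium ran from -0.87 ± 0.48 log2 for Cxcl10 (adjusted p = 0.48) to 0.56 ± 1.11 for Cxcl2 (adjusted p = 0.88). Cxcl3 had no counts to compare. SEs above 1 for Cxcl2, Cxcl9 (0.38 ± 1.77), Cxcl11 (0.05 ± 1.18) and Cxcr4 (0.48 ± 1.18) leave differences of 2-fold or more within 1 SE.

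Under stimulation 0 of 7 members were called by edgeR, where 4.64% of all genes were, and 0 had an unadjusted p below 0.05. DESeq2 called 0 members in either condition. Cxcl10 was the 1 member whose groups did not overlap, against 24% of all genes, with means of 675 ± 339 CPM in WT and 1177 ± 80.0 CPM in KO (SD, n = 3 clones each) and a difference of 0.80 ± 0.44 log2 (adjusted p = 0.33 by edgeR). Its neighbours were at 0.76 ± 0.58 for Cxcl9 (adjusted p = 0.49) and 0.65 ± 0.58 for Cxcl11 (adjusted p = 0.57). Without WT 3, the WT clone with the highest levels of the 3 genes, both of these were called, at 1.98 for Cxcl9 (adjusted p = 0.014) and 1.82 for Cxcl11 (adjusted p = 0.02). Cxcl10 was not called there. Leaving out the highest WT clone raises the KO minus WT value of these genes by construction. More of all genes were called without WT 3 as well, as given in the last section.

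The neutrophil chemokines gave 0.16 ± 0.63 log2 for Cxcl2 (adjusted p = 0.92) and -1.84 ± 1.69 for Cxcl3 (adjusted p = 0.6) under stimulation. Without WT 2 the Cxcl3 difference turned to 1.86. Cxcl16 gave -0.53 ± 0.64 (adjusted p = 0.69). For Cxcr4 the 5 KO counts and 1 WT count gave a ratio of 5.38 with a 95% counting interval of 0.602 to 254, so no difference was detectable at this depth.

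The difference between the KO and WT responses was tested as an interaction. No member was called, and neither was any other gene in edgeR (0%), although 611 genes and 1 member, Cxcl10, had an unadjusted p below 0.05. DESeq2 called 22 genes and the fit with the clone as a replicate block called 40, with 0 members in either. For Cxcl10 the interaction was 1.67 ± 0.65 log2 (unadjusted p = 0.028, adjusted p = 0.93), and 1.85 ± 0.39 with the block (adjusted p = 0.13). Within clones it rose by 58.3-, 36.7- and 58.3-fold in WT 1, 2 and 3 and by 241-, 280.2- and 102-fold in KO 1A, 1B and 2. The KO clones all had the larger fold, with lower medium levels in KO 1A and 1B and higher stimulated levels in all 3. The interactions of Cxcl2 (-0.39 ± 1.27), Cxcl9 (0.38 ± 2.05), Cxcl11 (0.60 ± 1.33) and Cxcl16 (-0.12 ± 0.90) had SEs above their size. None could be fitted usefully for Cxcl3, with 0 counts in medium, or for Cxcr4, with 1 and 5 counts under stimulation.

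The clones of a genotype did not take the same order in each gene. Within the stimulated WT clones, WT 3 was highest for Cxcl9, Cxcl10 and Cxcl11 and lowest for Cxcl2 and Cxcl3. WT 2 was the reverse for Cxcl3 and for the 3 Cxcr3 ligands. The summed level of the 3 Cxcr3 ligands over that of Cxcl2 and Cxcl3, in CPM, was 2.33, 1.26 and 24.2 in WT 1, 2 and 3. It was 9.77, 12.8 and 3.38 in KO 1A, 1B and 2, so the KO clones lay inside the WT range. KO 2 was the highest KO clone for Cxcl2, Cxcl3, Cxcl10 and Cxcl16 and the lowest for Cxcl9 and Cxcl11. KO 1A and KO 1B were the nearest pair of KO clones in all 6 ligand genes.

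**Figure D4:**
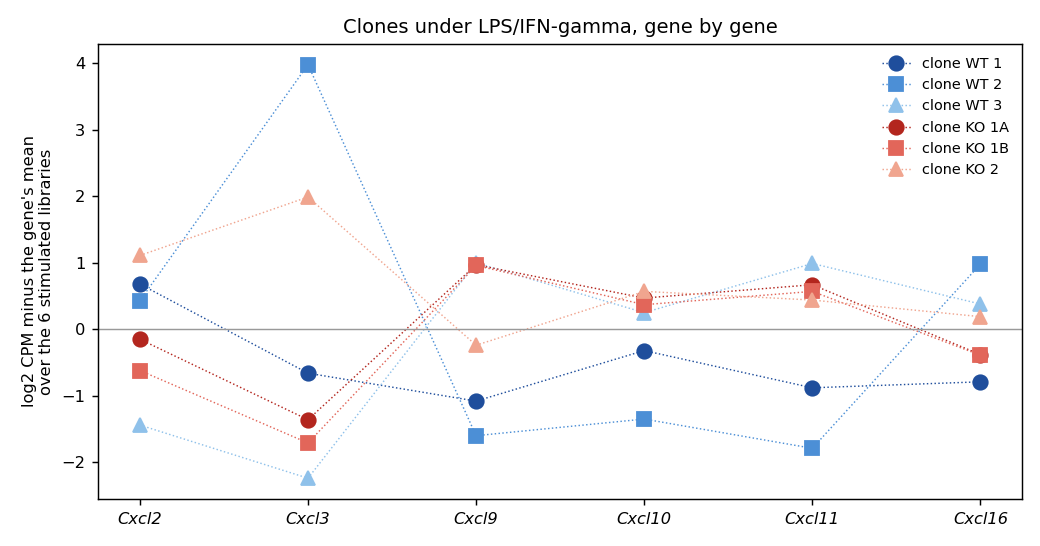
Stimulated level of each ligand gene in each clone, as log2 CPM minus the mean of that gene over the 6 stimulated libraries; dotted lines join the values of a clone and carry no order. WT 3 is the lowest clone for Cxcl2 (-1.44) and Cxcl3 and among the highest for Cxcl9 and Cxcl11, and the 3 KO clones lie closest together for Cxcl10 and Cxcl11.

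Levels were compared between genes as CPM per kb of merged exons. In stimulated WT clones the order of the mean levels was Cxcl10 (299.6 ± 150), Cxcl16 (219.9 ± 119), Cxcl2 (157 ± 92.2), Cxcl11 (124 ± 120), Cxcl9 (99.2 ± 98.3), Cxcl3 (7.07 ± 11.3) and Cxcr4 (0.0187 ± 0.0324). The first 5 overlapped each with its neighbour, while by this length the highest Cxcl3 library lay below the lowest of each of them and Cxcr4 lay below Cxcl3. In stimulated KO clones Cxcl10 stood alone at the top, at 523 ± 35.5 CPM per kb, above the ranges of all other members. Cxcl11 (194 ± 15.4), Cxcl2 (175 ± 115), Cxcl9 (168 ± 67.8) and Cxcl16 (153 ± 36.9) followed and overlapped, then Cxcl3 (1.99 ± 2.67) and Cxcr4 (0.0982 ± 0.0917).

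In medium Cxcl16 led in both genotypes, at 28.5 ± 20.5 CPM per kb in WT and 21.6 ± 12.7 in KO. Cxcr4 (5.73 ± 8.78 and 7.98 ± 8.57) and Cxcl10 (5.64 ± 1.88 and 3.13 ± 2.05) came next and overlapped. Cxcl2, Cxcl11 and Cxcl9 lay below Cxcl10 in all libraries, with means of at most 0.583 CPM per kb. Merged exons of Cxcl2, Cxcl3 and Cxcl10 form 1 block and so include introns. By the length of the longest coding transcript Cxcl3 was at 24.3 ± 38.9 CPM per kb in stimulated WT clones and Cxcl10 at 499 ± 250.4, with the order of the mean levels there unchanged. By that length the ranges were no longer apart, since the highest stimulated WT library of Cxcl3, WT 2 at 69.3 CPM per kb, lay above the lowest ones of Cxcl9 (36.6), Cxcl11 (38.0) and Cxcl2 (58.2).

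Genes whose pattern over the 12 libraries was most like each member were ranked by the root mean square difference of centred log2 CPM, as a description. The 9397 genes ranked were protein-coding, outside the members and at a mean of at least 5 CPM. For Cxcl9 and Cxcl11 the nearest gene, among these and the members, was the other of the pair, at 0.50 log2. After it, both lists held Il27, a subunit of a cytokine that acts on T cells (0.66 from Cxcl9 and 0.64 from Cxcl11), and the chemokine gene Ccl22 (0.61 and 0.76). Il27 stood at 0.426 ± 0.282 CPM in medium and 641 ± 497 CPM under stimulation in WT, and at 0.332 ± 0.148 and 786 ± 65.3 CPM in KO. Cxcl9 was also near Nos2, the inducible nitric oxide synthase gene (0.84), and Cxcl11 near Cd40, a costimulatory receptor gene (0.83).

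Cxcl10 was nearest to Csf1, the macrophage growth factor gene (0.55), Gpat3 (0.63) and Dusp5 (0.67), rather than to Cxcl9 or Cxcl11, and its nearest member was Cxcl2 (1.42). Cxcl2 was nearest to Csf3, the granulocyte growth factor gene (0.96), which went from 0.0261 ± 0.0452 to 116 ± 94.8 CPM in WT and from 0.0475 ± 0.0413 to 219.97 ± 99.1 CPM in KO, followed by F3, the tissue factor gene (0.99), and Tgtp2, an interferon-induced GTPase gene (1.00). Cxcl3 was nearest to Flrt3 (1.03), Nod1, a sensor of bacterial peptidoglycan (1.11), and Tnfrsf1b, a TNF receptor gene (1.12). Flrt3 was uneven among clones as well, at 24.3 ± 36.9 CPM in stimulated WT clones. Cxcl16 was near Tmsb10 (0.41), Tnip3 (0.42) and Slc2a6 (0.43). Among the genes ranked, Cxcr4 had none within 1 log2. The nearest was the potassium channel gene Kcnj2 (1.35), at 79.9 ± 86.0 CPM in medium and 6.47 ± 7.10 CPM under stimulation in WT. Trp53inp1 (1.41) and Sirpa (1.49) came next.

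The genes around the chemokines were taken from 7 lists of the system's other parts. Of 9 other CXC ligand genes tried, Cxcl14, a chemokine of epithelia, was the 1 in the table. It was at 150 ± 40.6 CPM in medium and 114 ± 55 CPM under stimulation in WT, a change of -0.39 ± 0.69 log2 (adjusted p = 0.67). In KO it fell from 130 ± 103 to 34.1 ± 32.3 CPM (-1.93 ± 0.72, adjusted p = 0.043). The interaction was not called (-1.54 ± 0.99, adjusted p = 1). Cxcl1, Cxcl5, Cxcl12, Cxcr2 and Cxcr6 were among the genes tried and were not in the table, so no level could be given for them.

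Of 10 further CXC and atypical receptor genes, 3 were in the table. Ccrl2, which encodes a receptor-like protein that binds chemerin, rose by 6.53 ± 0.64 log2 in WT (adjusted p = 2.6e-05) and 7.45 ± 0.69 in KO (adjusted p = 1.3e-05). Cxcr5, the receptor for Cxcl13, rose in WT from 1.12 ± 0.432 to 3.52 ± 0.233 CPM (1.63 ± 0.30, adjusted p = 0.0012). In KO it was at 1.16 ± 0.227 and 1.47 ± 0.171 CPM (0.35 ± 0.32, adjusted p = 0.37). Under stimulation it was lower in KO than in WT (-1.25 ± 0.30, adjusted p = 0.044), and the interaction was -1.28 ± 0.44 (unadjusted p = 0.014, adjusted p = 0.79). Cxcr3, the receptor for Cxcl9, Cxcl10 and Cxcl11, was at 33.4, 6.81 and 6.41 CPM in medium in WT 1, 2 and 3 and at 1.27, 1.49 and 1.32 CPM in KO 1A, 1B and 2. These groups did not overlap, but the difference of -3.50 ± 1.23 log2 was not called (adjusted p = 0.22).

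Over all genes 23.8% were called higher and 23.6% lower in WT, and 26.7% and 27.6% in KO, and the counts of the lists are read against these shares. The sensors and interferon receptors had 5 of 10 genes higher and 1 lower in WT, and 5 higher and 2 lower in KO. Ifnb1, the interferon beta gene, went from 4 counts in all to 31.6 ± 11 CPM in WT (8.25 ± 0.53 log2, adjusted p = 1.2e-06) and from 1 count to 20.5 ± 1.23 CPM in KO. Tlr4, the LPS receptor gene, fell by 1.86 ± 0.32 in WT (adjusted p = 0.00081) and by 2.57 ± 0.32 in KO (adjusted p = 8.5e-05). Of 16 genes of NF-kB and interferon pathway factors and their regulators, 14 rose and 0 fell in either genotype, against 23.8% of all genes called higher in WT and 26.7% in KO, with a median of 2.39 log2 in WT and 2.49 in KO against -0.01 for all genes. Irf1, which binds the ISRE, rose by 5.62 ± 0.22 in WT (adjusted p = 4.3e-08) and 5.47 ± 0.22 in KO (adjusted p = 5.2e-08). Rela and Irf3, which are activated as proteins, gave 0.18 ± 0.12 and 0.03 ± 0.11 in WT and were not called.

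Of these 16, 2 regulators of NF-kB were called higher and 0 genes lower in stimulated KO clones than in stimulated WT clones. Over all genes 4.64% were called in this comparison, 24.3% of them higher. Nfkbiz encodes IkappaB-zeta, a nuclear partner of NF-kB that is needed for a subset of its targets. It stood at 8.84, 12.7 and 9.02 CPM in medium in WT 1, 2 and 3 and at 15.4, 16.2 and 22.7 CPM in KO 1A, 1B and 2. Under stimulation it was at 151, 127 and 203 CPM in WT and at 812, 678 and 666 CPM in KO. The KO clones lay above the WT clones in both conditions, by 0.83 ± 0.22 log2 in medium (adjusted p = 0.10) and by 2.16 ± 0.21 under stimulation (adjusted p = 0.00088). Nfkbia, the feedback inhibitor of NF-kB, differed by 0.43 ± 0.10 (adjusted p = 0.034).

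Among 6 regulators of chemokine mRNA decay, 3 rose in WT, and 3 rose and 1 fell in KO. With 3 and 4 of 6 called either way, this is near the share of all genes (23.8% plus 23.6% in WT, 26.7% plus 27.6% in KO). The genes that rose were a larger share than the genes called higher alone, and no test of this list of 6 was run. Zfp36, which encodes tristetraprolin, rose by 3.42 ± 0.18 log2 in WT (adjusted p = 3.2e-07) and 3.33 ± 0.18 in KO (adjusted p = 3.5e-07). Its relative Zfp36l2 was lower in stimulated KO than WT clones (-1.26 ± 0.29, adjusted p = 0.035). Of 10 proteases known to cut or shed chemokines, 6 were in the table, with 2 higher and 1 lower in WT and 3 higher and 1 lower in KO. Called either way, this is again near those shares. The genes that rose were a larger share than the 23.8% and 26.7% of all genes called higher, and this list was not tested either. Adam10, a sheddase of Cxcl16, fell by 0.99 ± 0.10 in WT (adjusted p = 2e-05) and by 1.44 ± 0.10 in KO (adjusted p = 1.3e-06). Mmp9, a gelatinase that trims CXC chemokines, was at 3.26 ± 2.27 CPM in stimulated WT and 37.4 ± 0.680 CPM in stimulated KO clones (3.52 ± 0.56, adjusted p = 0.0081).

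Of 20 genes of Cxcr4 signalling and turnover, 9 rose and 4 fell in WT, and 10 rose and 3 fell in KO, with a median of 0.33 log2 in both. The genes that fell were no larger a share than the 23.6% and 27.6% of all genes. The genes that rose were a larger share than the 23.8% and 26.7% of all genes, and no test of the list was run. Jak2, a kinase linked to cytokine and chemokine receptors, rose by 3.17 ± 0.23 in WT (adjusted p = 3e-06) and 3.02 ± 0.23 in KO (adjusted p = 3e-06). Arrb1, which encodes an arrestin that uncouples such receptors, fell by 1.92 ± 0.37 in WT (adjusted p = 0.0016) and by 2.37 ± 0.38 in KO (adjusted p = 0.00043). Pik3cg, the G protein coupled PI3 kinase gene, was lower in stimulated KO than WT clones (-0.58 ± 0.14, adjusted p = 0.044). In medium 0 of the 62 tested genes of these 7 lists were called between genotypes, where 1.21% of all genes were, although 17 had groups that did not overlap, against 20.9% of all genes. Among them were Cd74, which encodes the receptor chain for Mif (1.12 ± 0.26 log2, adjusted p = 0.073), Rgs1, a brake on chemokine receptor signalling (-3.15 ± 0.96, adjusted p = 0.16), and Tlr4 (1.15 ± 0.31, adjusted p = 0.11), named after their values were seen. The interaction called 0 of the 62 genes and 0 of all genes by edgeR.

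**Figure D5:**
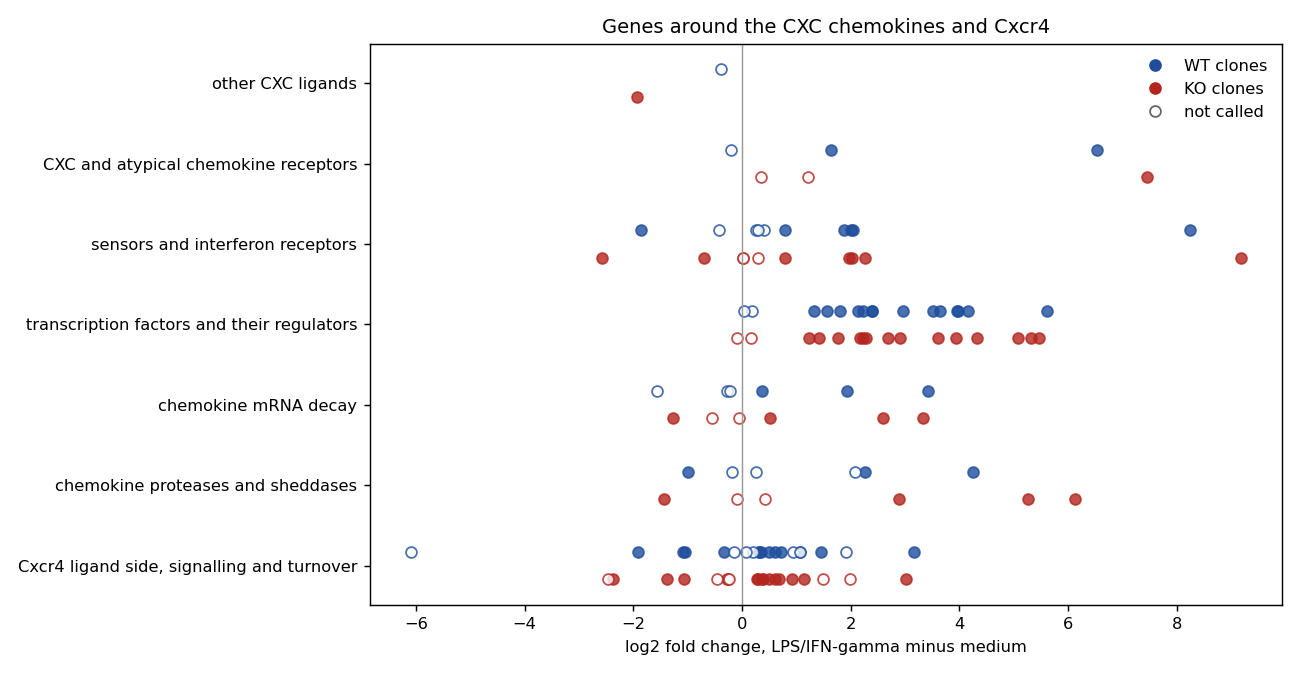
Log2 fold change under LPS and IFN-gamma of each tested gene in 7 lists around the members, in WT clones (blue) and KO clones (red), with open circles for genes not called at an adjusted p of 0.05. Of the 16 genes of transcription factors and their regulators, 14 are called and lie to the right of 0 in each genotype, while the Cxcr4 signalling genes lie on both sides.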

How the data were processed

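RNA from 12 libraries of RAW264.7 clones was measured, per the labels. The authors deposited 1 table of whole-number gene counts for all libraries. Its build was mm10 (GRCm38) and DESeq2 was used, per the submitters' processing notes. Aligner, counter and strand setting: not given in the sources used here. That table held 12483 genes, with no second-highest count of a gene below 5. GENCODE M21 named 12305 of them.

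From these counts, edgeR 4.0.16 in R 4.3.3 computed CPM from TMM-scaled library sizes. Robust quasi-likelihood tests used 12231 genes kept by filterByExpr (252 left out), 1 mean per group over all 12 libraries, 8 residual degrees of freedom and Benjamini-Hochberg adjusted p below 0.05. The biological coefficient of variation was 23.6%, and 11.7% with the clone as a replicate block. The SE of a log2 fold change was its size divided by the square root of its F statistic. It is not a separate estimate and is unreliable where a group has few counts. The code was tested on simulated data. Depth was 10624591 to 14388590 counts per library, and intervals and floors (3 counts) cover counting error only. With library totals in place of TMM, the median gene shifted to -0.37 log2 in WT and -0.39 in KO, and 23.2% and 24.5% of called genes were higher, against 50.3% and 49.1% with TMM; the direction and call of every member in both responses were the same.

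The clone name in the labels pairs the medium and stimulated library of a clone. Their deviations from the group means correlated at 0.64, 0.70 and 0.62 in WT 1, 2 and 3 and at 0.32, 0.29 and 0.51 in KO 1A, 1B and 2. The highest correlation with another clone was -0.2, -0.37 and -0.11 for the WT clones and 0.27, 0.18 and -0.35 for the KO clones. For KO 1A and KO 1B the pairing thus stood out less than in WT. Alternatives were the clone as a replicate block, RLE size factors, library totals, no filter, DESeq2 1.42.0, leaving out each clone, and KO 1A and 1B summed. The text names every member, genes of fixed lists and the 3 genes nearest to each member in pattern. The members and lists were chosen with earlier results of these data known. RefSeq protein sequences were not used here.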

Additional observations from a re-analysis of the deposited data

How the results depend on the processing

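The calls of the members in both responses were the same with RLE size factors, library totals alone and no filter on low counts. Paired fits with the clone as a replicate block kept every member call in WT and added Cxcl3 in KO (adjusted p = 7e-05), as did DESeq2 (adjusted p = 0.00085), and called 40 genes in the interaction. DESeq2 called 621 genes between genotypes in medium, 1153 under stimulation and 22 in the interaction, against 148, 567 and 0. With KO 1A and KO 1B summed these comparisons called 16 and 73 genes in medium and under stimulation, and the WT call of Cxcl3 was lost (adjusted p = 0.051). Leaving out 1 clone at a time gave 14 (without KO 1A) to 419 (without WT 3) genes in medium, 48 (without KO 1A) to 972 (without WT 3) under stimulation and 0 to 4 in the interaction. The number of members called under stimulation then ran from 0 to 2, the 2 being Cxcl9 and Cxcl11 without WT 3. Differences that changed sign when a clone was left out, none of them called, are given as the lowest to the highest log2 value. In medium they were those of Cxcl2 (-0.55 to 1.5), Cxcl11 (-0.69 to 0.41), Cxcl16 (-0.99 to 0.20) and Cxcr4 (-0.91 to 3.59). Under stimulation they were those of Cxcl2 (-0.51 to 0.53) and Cxcl3 (-3.98 to 1.86). In the interaction they were those of Cxcl2 (-1.16 to 0.20), Cxcl9 (-0.35 to 1.85) and Cxcl16 (-0.29 to 0.25). Cxcl3 had no counts in medium, so its interaction only repeats its stimulated difference and is not listed. The cause of these changes was not tested. Per kb of the longest coding transcript, a length chosen after seeing the data (as was leaving clones out of the count ratios of Cxcl3 and Cxcr4), Cxcl2 and Cxcl11 changed places in stimulated KO clones, and Cxcr4 and Cxcl10 in WT medium. With library totals the mean of Cxcl10 in stimulated KO clones was 1048 CPM and that of Cxcl11 656 CPM. Alternatives were run for the members and for counts over all genes, not for the genes of the lists.

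A number of 3 clones per genotype limits what could be called: between genotypes the SE of a member ran from 0.44 to 1.77 log2 where a fitted difference was given. If KO 1A and KO 1B stem from 1 cell, KO holds 2 independent clones. Cxcl3 in medium and Cxcr4 under stimulation had too few counts for a difference between genotypes to be detectable. A floor of 3 counts over a group bounds the level of Cxcl3.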
